A study of Mus musculus with 48 samples.

Results

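The Nodal and Lefty pathway genes were described here in mouse embryonic stem cells whose transcription had been stopped. The group was set by gene name, with earlier results of these data known, and holds 10 genes: the ligand Nodal, its secreted antagonists Lefty1 and Lefty2, the co-receptor Tdgf1, the receptors Acvr2b and Acvr1b, the signal transducers Smad2 and Smad3, their DNA-binding partner Foxh1, and the Smad co-repressor Skil. Of these, 9 had values among the 23862 genes listed in the deposited files, and Skil was not analysed here. All cells were of the E14TG2a line, a mouse embryonic stem cell line, and grew in the medium called 2i + LIF, which here also held serum. Every library used here came from cells given 1 µM flavopiridol, an inhibitor of the kinases that release RNA polymerase II into elongation, and the 0 min cells enter only as the denominator. Poly(A) RNA was sequenced from total cells and from the nucleus, cytosol and membrane fractions at 30, 60, 120 and 240 min, with 3 separately passaged replicates at each, which gave 48 libraries. Each value divides a gene's amount by what the same fraction held of it at 0 min. Libraries were scaled on long-lived transcripts, so amounts here are relative to those transcripts. A value of 1 is thus the relative amount before the block. Such ratios give no level that could be compared between genes or between fractions.

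Nodal is a ligand of the TGF-beta superfamily. It binds type II and type I activin receptors, Acvr2b and Acvr1b among them, together with the co-receptor Tdgf1 (Cripto), and the receptors phosphorylate Smad2 and Smad3, which enter the nucleus with Smad4 and reach their targets through Foxh1. Nodal, Lefty1 and Lefty2 are themselves targets of this signal, and the Lefty proteins block Nodal outside the cell, so the pathway carries both a positive and a negative feedback loop. In the early embryo it acts on the epiblast, the primitive streak and the left-right axis, and mouse embryonic stem cells transcribe it in culture.

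The stem cell label was checked against markers. Of 9 pluripotency markers, 7 were listed in all 48 libraries and the other 2 in some (Zfp42 in 47 and Esrrb in 37). Of 5 primitive endoderm markers 3 were listed in some libraries (Gata6 in 42, Sox7 in 38 and Sox17 in 1). Of 5 fibroblast markers 4 were listed in some (Twist1 in 47, Col1a1 in 44, Thy1 in 43 and Col1a2 in 12). No marker of these other sets was listed in every library, but the counts overlap, so listing alone does not establish the label. Markers listed in no library were not analysed here, and without levels the amount of any other cell type was not tested. Libraries listed 15067 to 19501 genes. The files give no read counts, so the depth behind each ratio is unknown and no counting interval can be given.

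Sequences are shown for the member with the shortest half-life in total RNA and for the pair of paralogs whose RNAs parted. Lefty1 (chr1:180935022-180938400, plus strand, GRCm38) and Lefty2 (chr1:180893108-180899103, plus strand) are neighbouring paralogs whose coding sequences, of 1107 bases each, were identical at 91.9% of positions. Their 3′ UTRs were of 425 and 1290 bases and were identical at 73.9% of the 425 aligned positions. By the same measure the 3′ UTRs of Smad2 and Smad3 were identical at 64.9% of aligned positions, and those of Acvr1b and Acvr2b at 64.5%. Their coding sequences were identical at 77.1% and 59.1%. Each 3′ UTR held 1 copy of AGCACTT, the complement of the bases 2 to 8 (the seed, in capitals in the miRNAs) of embryonic stem cell miRNAs of the miR-290 and miR-302 clusters. The sites lie 238 and 104 bases after the stop codon, in chr1:180938203-180938229 and chr1:180897907-180897933, with the match in capitals. The 2 miRNAs shown were taken from RefSeq (GRCm38.p6), and miR-291a-3p, miR-295-3p and miR-302d-3p have the same seed.
Lefty1: ctgtatgcgaAGCACTTacatgtatag
Lefty2: acccagtttaAGCACTTacatgggtaa
mmu-miR-294-3p: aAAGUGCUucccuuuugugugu
mmu-miR-302b-3p: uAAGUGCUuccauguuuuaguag

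On the transcript strand, AGCACTT was held by 5.04% of 932 tested genes' 3′ UTRs of a length like that of Lefty1 and by 14.8% of 1441 of a length like that of Lefty2. Smad2 held 3 copies in its 3′ UTR of 6233 bases, and Nodal, Tdgf1, Acvr2b, Acvr1b, Smad3 and Foxh1 held none. The shorter part GCACTT was also in Nodal (1 copy, 596 bases after the stop codon), as in 19.1% of 1163 3′ UTRs of like length. Tdgf1, Acvr2b, Acvr1b, Smad3 and Foxh1 lacked it too. The part of these sites in any difference between the paralogs was not tested.

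Nodal (chr10:61417972-61425338, plus strand), which had the shortest half-life in total RNA, held in its 3′ UTR of 702 bases 1 ATTTA, the core of AU-rich elements that are known from short-lived mRNAs, and 2 copies of TGTANATA, the element that Pumilio proteins bind. ATTTA was in 61.7% of 1163 3′ UTRs of like length, and 2 or more TGTANATA in 2.06% of them. Smad2 held 4 copies of TGTANATA (4 or more were in 8.08% of 334 3′ UTRs of like length), Acvr1b held 1, and the other 6 members held none. The 3 windows shown, chr10:61424912-61424939, chr10:61424926-61424953 and chr10:61424945-61424969, overlap, so they are not separate stretches of the UTR.
Nodal TGTANATA, first: aaggctggggTGTATATAtatatatgta
Nodal TGTANATA, second: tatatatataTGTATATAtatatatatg
Nodal ATTTA: atatatatgtATTTAtttttgatgc

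The longer element TTATTTATT was in none of the 9 members' 3′ UTRs. ATTTA was absent from Lefty1 and Foxh1, occurred 1 time in Lefty2, Tdgf1 and Acvr2b, 5 times in Acvr1b, 4 times in Smad3 and 17 times in Smad2. A match of letters is a description of the sequence, and its part in any slope was not tested.

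**Figure D1:**
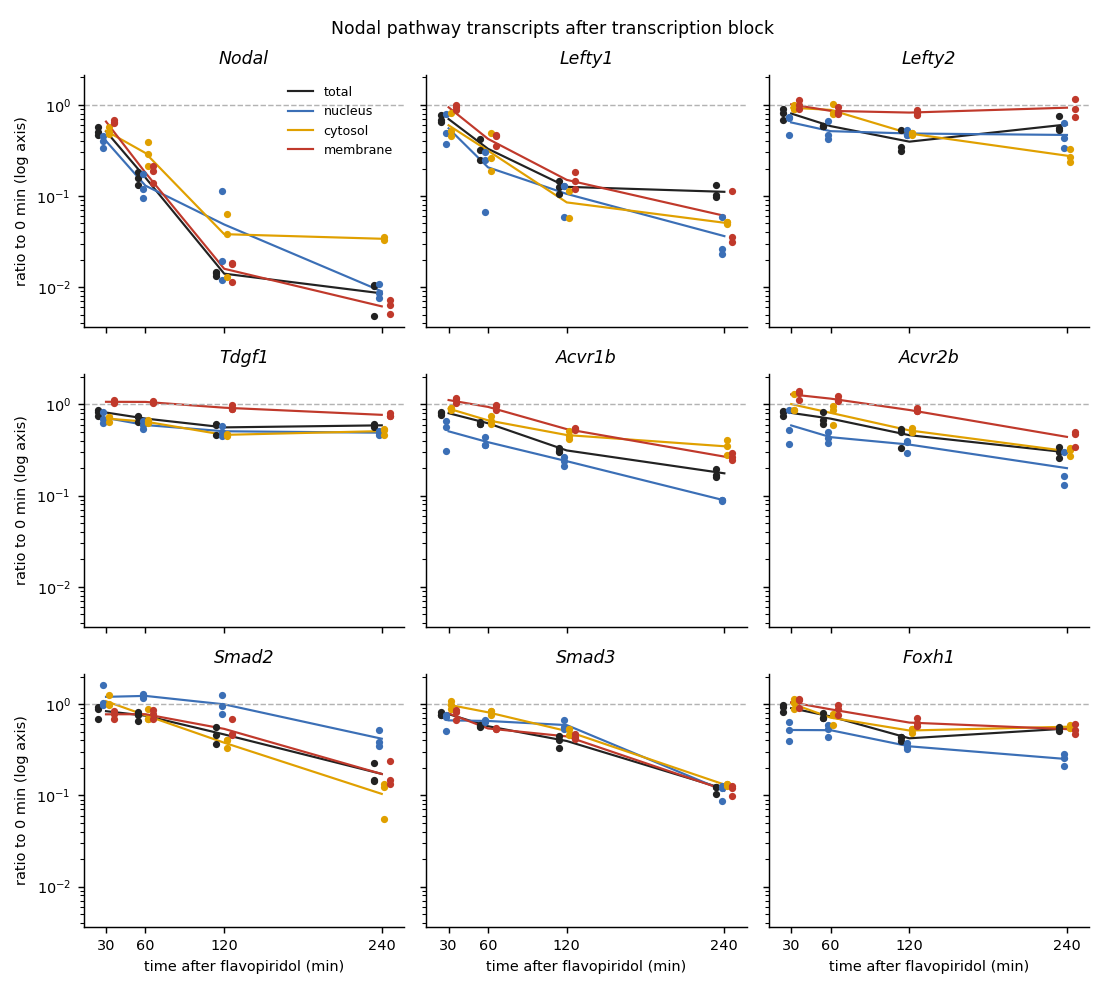
Ratio to 0 min (log axis) against time after flavopiridol (min) for the 9 members, with 1 point per library, set slightly apart by fraction, and lines through the means of up to 3 replicates in total RNA, nucleus, cytosol and membrane. Nodal and Lefty1 ended lowest, Lefty2 and Tdgf1 in the membrane stayed near 1, and Smad2 in the nucleus stayed near 1 up to 120 min.

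The first question was how fast each transcript disappeared once synthesis stopped. In total RNA 8 of the 9 members fell, by limma's moderated test of the slope of log2 ratio on time at an adjusted p under 0.05, and none rose; over all 12762 genes tested 56.9% fell and 3.39% rose. In the nucleus 8 of 9 fell (61.9% of all genes), in the cytosol 7 of 7 (67.1%) and in the membrane 8 of 9 (62.2%), and no member rose in these fractions, where 3.32%, 2.95% and 4.09% of genes did (0 members upward at an unadjusted p under 0.05 as well). The share of members that fell lay above that of all genes in each fraction, but most genes fell, so a fall alone did not set the members apart. The slopes of Nodal, Lefty1, Acvr1b, Acvr2b, Smad2 and Smad3 kept their sign in each fraction where they were tested under the 3 other scalings tried, but not every call. In the nucleus 4 members fell with libraries centred on the median gene (29.2% of all genes) and 4 on the scale of the mitochondrially encoded mRNAs (21.9%). Acvr2b (-0.11 and -0.24 log2 per h, limma adjusted p = 0.180 and 0.223) and Smad2 (-0.14 and -0.26, limma adjusted p = 0.0955 and 0.0789) passed under neither. In the cytosol 4 fell under each (32.4% and 29.5% of all genes), and Acvr1b passed under neither (-0.09 and -0.21, limma adjusted p = 0.0794 and 0.162). Slopes of Tdgf1, Lefty2 and Foxh1 turned positive when the median gene was set to 0. Tdgf1 and Lefty2 also had positive slopes in some fractions on the scale of the mitochondrially encoded mRNAs or of the ribosomal protein genes. The members' median slope was -0.63 log2 per h in total RNA, where the median gene had -0.22. It was -0.46 against -0.30 in the nucleus, -0.48 against -0.28 in the cytosol and -0.60 against -0.26 in the membrane. Half-lives from an exponential fit had a median of 98.5 min over the 9 members in total RNA and 244 min over all genes.

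Nodal, the ligand, had the steepest slope of the members in total RNA, nucleus and membrane, and the shortest half-life in total RNA and membrane. In total RNA its ratio was 0.466, 0.504 and 0.563 in the 3 libraries at 30 min and 0.159, 0.133 and 0.185 at 60 min. At 120 min it was 0.0146, 0.0133 and 0.0143, and at 240 min 0.00487, 0.0102 and 0.0106. The libraries of neighbouring times did not overlap, and the mean at 240 min was 0.855% of the starting amount. The slope was -1.65 ± 0.24 log2 per h (SE, limma adjusted p = 6.76e-05), the half-life was 17.8 ± 1.85 min (SD over the 3 replicate series), and 0.345% of genes had a shorter one. With the starting level fixed at 1 the half-life was 26.5 min, and a straight line on the log2 scale gave 36.3 min.

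Nodal fell in the nucleus and membrane as well. In the membrane, where the mRNA of a secreted protein is translated, the ratio went from 0.654 ± 0.0266 (SD, n = 3) at 30 min to 0.00616 ± 0.00107 at 240 min, with a slope of -1.86 ± 0.23 log2 per h (SE, limma adjusted p = 1.25e-05) and a half-life of 16.2 ± 2.49 min (32.1 min with the starting level fixed at 1 and 32.3 min by a straight line). In the nucleus the slope was -1.48 ± 0.21 (limma adjusted p = 3.87e-05) and the half-life 20.1 ± 10.6 min, or 40.5 min by a straight line. The 3 nuclear libraries at 120 min were far apart, at 0.115, 0.0120 and 0.0194. The slopes in nucleus and membrane differed by 0.38 ± 0.32 log2 per h (limma adjusted p = 0.500), which did not pass the threshold. In the cytosol Nodal was not listed in replicate 1 at 240 min and was left out of the test. Its cytosolic ratio went from 0.497, 0.577 and 0.477 at 30 min to 0.0384, 0.0128 and 0.0631 at 120 min, and the 2 libraries left at 240 min stood at 0.0328 and 0.0351. Over the 11 libraries that list it, with the missing one left out, limma gave a slope of -1.22 ± 0.29 log2 per h (SE, adjusted p = 0.00327), and membrane minus cytosol was -0.64 ± 0.38 (adjusted p = 0.427).

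Lefty1, a secreted inhibitor of Nodal, had the next shortest half-life in total RNA by the exponential fit, although its slope was shallower than that of Smad3. Its ratio in total RNA was 0.647, 0.676 and 0.767 at 30 min, 0.320, 0.248 and 0.419 at 60 min and 0.105, 0.146 and 0.127 at 120 min. At 240 min it was 0.134, 0.0979 and 0.102, which overlapped the 120 min libraries. The slope was -0.69 ± 0.13 log2 per h (SE, limma adjusted p = 0.000557) and the half-life 33.1 ± 4.68 min, shorter than in all but 2.52% of genes. By a straight line on the log2 scale the half-life was 86.4 min, above the 77.9 min of Smad3, and with libraries centred on the median gene the exponential gave 58.8 min. With the starting level fixed at 1 it gave 44.0 min. In the membrane Lefty1 started near 1, at 0.868, 0.952 and 0.993 at 30 min, and stood at 0.0315, 0.115 and 0.0357 at 240 min. The half-life was 29.4 ± 6.74 min there (59.1 min with the starting level fixed at 1 and 52.1 min by a straight line), and the slope -1.15 ± 0.13 log2 per h (SE, limma adjusted p = 5.21e-06). In the nucleus the slope was -1.02 ± 0.17 (limma adjusted p = 0.000198), with libraries as far apart as 0.303, 0.0670 and 0.249 at 60 min. The nuclear half-life was 25.9 ± 27.5 min (58.6 min by a straight line), against the 20.1 min of Nodal. In replicate series 2 and 3 that of Lefty1 was the shorter (11.1 against 14.4 min and 18.7 against 21.3 min), and without replicate 1 the fits gave 16.1 min for Lefty1 and 17.9 min for Nodal, so the order of their nuclear half-lives was not settled. In the cytosol, where 1 library at 120 min did not list it, the mean went from 0.595 ± 0.192 (SD, n = 3) at 30 min to 0.0509 ± 0.00175 at 240 min, and over the 11 libraries that list it limma gave a slope of -0.96 ± 0.15 log2 per h (SE, adjusted p = 0.000155).

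Lefty2 behaved otherwise. In the membrane, its 3 libraries stood at 1.01, 0.901 and 1.13 at 30 min and 0.946, 0.789 and 0.835 at 60 min. They stood at 0.874, 0.781 and 0.808 at 120 min and 0.899, 1.15 and 0.742 at 240 min, and every pair of successive times overlapped. The slope of -0.02 ± 0.05 log2 per h did not pass the threshold (limma adjusted p = 0.749), and the exponential fit gave replicate half-lives of 1393 and 389 min in 2 series and no finite value in the other. In the cytosol the ratio was 0.987, 0.890 and 0.909 at 30 min, 0.809, 0.801 and 1.03 at 60 min, 0.490, 0.470 and 0.492 at 120 min and 0.234, 0.329 and 0.266 at 240 min. There Lefty2 fell at -0.53 ± 0.04 log2 per h (SE, limma adjusted p = 2.55e-07), with a half-life of 109 ± 15.5 min.

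The difference between these compartments passed its own test. The Lefty2 slope was higher by 0.51 ± 0.06 log2 per h in the membrane than in the cytosol (SE, limma adjusted p = 2.32e-05). It was higher by 0.42 ± 0.08 in the nucleus than in the cytosol (limma adjusted p = 0.00133), although without replicate 1 this was 0.25 (limma adjusted p = 0.0753). In the nucleus the libraries stood at 0.467, 0.734 and 0.719 at 30 min and 0.631, 0.432 and 0.336 at 240 min. The nuclear slope of -0.11 ± 0.07 log2 per h did not pass (limma adjusted p = 0.191), and without replicate 1 it was -0.24 (limma adjusted p = 0.0129). With each library rescaled to the mitochondrially encoded mRNAs the membrane difference was 0.22 (limma adjusted p = 0.117) and the nuclear one 0.43 (limma adjusted p = 0.240). On that scale 0.0631% and 0.0267% of all genes were higher in these comparisons, against 4.94% and 12.3% without it. Over 30 to 120 min the nuclear difference was 0.44 (limma adjusted p = 0.166).

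In total RNA Lefty2 first went down and then stood higher. The libraries were at 0.688, 0.821 and 0.894 at 30 min, 0.578, 0.591 and 0.581 at 60 min, 0.311, 0.347 and 0.523 at 120 min and 0.523, 0.750 and 0.551 at 240 min. The last 2 times touched, since the highest library at 120 min equalled the lowest at 240 min to 3 digits, and the difference between them was not tested. Over all 4 times the slope was -0.08 ± 0.09 log2 per h (limma adjusted p = 0.456), and over 30 to 120 min alone it was -0.69 (limma adjusted p = 0.00239). At 120 min the mean in total RNA, 0.394 ± 0.113 (SD, n = 3), lay below the means of all 3 compartments, of which the cytosol had 0.484 ± 0.0122, the nucleus 0.484 ± 0.0335 and the membrane 0.821 ± 0.0480. Each fraction was scaled on its own.

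The paralogs were then set against each other within each library, where any scaling of the library cancels. The quotient of the Lefty1 and Lefty2 ratios fell in all 4 fractions, by permutation tests of its slope, two-sided, with 100000 resamples of the time labels and adjustment over the 20 tests of 5 gene pairs in 4 fractions. Total RNA gave a slope of -0.61 ± 0.09 log2 per h (SE, permutation adjusted p = 0.00015), and the nucleus one of -0.92 ± 0.17 (permutation adjusted p = 0.00111). It was -1.13 ± 0.10 in the membrane, where the p of 1e-05 (permutation adjusted p = 0.0001) is the smallest that this number of resamples can give. In the cytosol, over 11 libraries, it was -0.43 ± 0.15 (permutation adjusted p = 0.0300), and this call was lost whichever replicate was left out (-0.45, -0.37 and -0.48 without replicates 1, 2 and 3). The nuclear value was -0.74 without replicate 1 (permutation adjusted p = 0.0531). With 0.1 added to each ratio the slopes were -0.42, -0.46, -0.14 and -0.71 in total RNA, nucleus, cytosol and membrane, and the cytosolic one did not pass (permutation adjusted p = 0.323).

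The paralogs share sequence where a single read of 75 bases cannot be placed. Of the windows of 75 bases in their transcripts, 11.2% of those of Lefty1 were also in Lefty2 and 7.21% of those of Lefty2 also in Lefty1. Fragments were sequenced from both ends, so a mate outside a shared window can still place a fragment. How far each ratio depends on the division of fragments that stay ambiguous was not tested. Tdgf1 shared 6.30% of its windows with the pseudogene Tdgf1-ps1, and the other 6 members shared none.

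**Figure D2:**
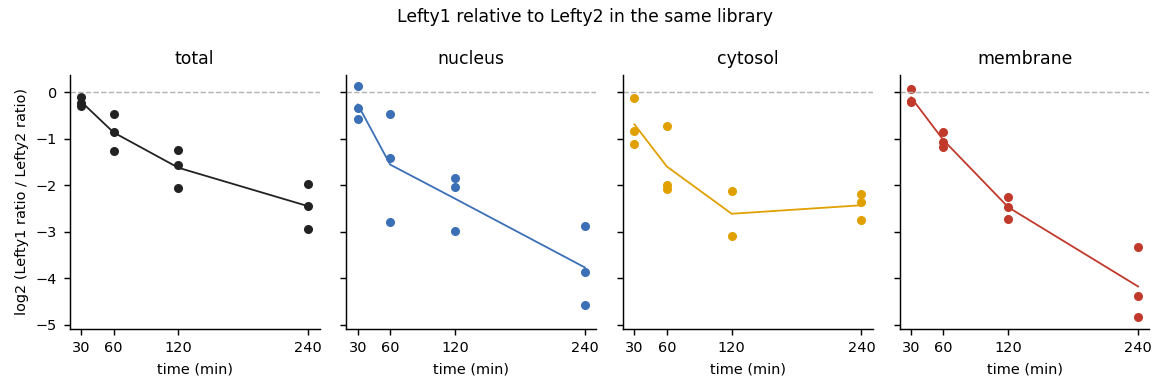
Log2 of the Lefty1 ratio over the Lefty2 ratio in the same library against time (min), 1 panel per fraction, with points for libraries and lines through their means. All libraries from 60 min on lie below 0, and the fall is steepest in the membrane, with a slope of -1.13 log2 per h.

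Nodal fell faster than its antagonist Lefty1 in total RNA, where the quotient of their ratios had a slope of -0.96 ± 0.16 log2 per h (SE, permutation adjusted p = 0.00015), and in the membrane, at -0.71 ± 0.20 (permutation adjusted p = 0.0108). Without replicate 2 the membrane value was -0.50 (permutation adjusted p = 0.110). In the nucleus the slope was -0.46 ± 0.21 (permutation adjusted p = 0.0651) and in the cytosol -0.16 ± 0.08 over 10 libraries (permutation adjusted p = 0.0904), and neither passed the threshold. These quotients rest on the lowest ratios of the series, and with 0.1 added to each ratio the slope in total RNA was -0.14 (permutation adjusted p = 0.0276), and those in membrane and nucleus were 0.01 and 0.00 (permutation adjusted p = 0.908 and 0.970). Over 30 to 120 min alone they were -1.85 in total RNA and -1.85 in the membrane (permutation adjusted p = 0.00197 for both).

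Tdgf1 (chr9:110939603-110946158, minus strand), the membrane-anchored co-receptor that lets Nodal bind its receptors, was at the slow end by its slopes over 30 to 240 min. In the membrane the libraries were at 1.05, 1.03 and 1.12 at 30 min and 0.753, 0.802 and 0.752 at 240 min. In the cytosol they were already at 0.646, 0.734 and 0.723 at 30 min and at 0.467, 0.529 and 0.534 at 240 min. The cytosolic means were 0.701, 0.648 and 0.464 at 30, 60 and 120 min. The library medians over all genes were higher, at 0.901 to 0.972, 0.792 to 0.891 and 0.645 to 0.686. In total RNA and nucleus the Tdgf1 mean at 30 min lay within the range of library medians, and in the membrane above it. Tdgf1 passed the test in all 4 fractions, with slopes of -0.12 ± 0.04, -0.13 ± 0.05, -0.13 ± 0.04 and -0.14 ± 0.02 log2 per h in total RNA, nucleus, cytosol and membrane (SE, limma adjusted p = 0.0318, 0.0214, 0.0150 and 0.000119). The call in total RNA and nucleus was lost without replicate 2 (slopes -0.11 in both) or 3 (-0.11 and -0.12), and in the cytosol whichever replicate was left out (-0.13 to -0.14). All these slopes were shallower than that of the median gene, so that Tdgf1 had a positive slope in each fraction when libraries were centred on it. The half-life was 432 ± 124 min in total RNA and 392.3 ± 21.1 min in the cytosol. These values depend on the fit, since a starting level of 1 gave 202 and 142 min, the times of 30 to 120 min alone 166 and 152 min, and the scale of the mitochondrially encoded mRNAs 232 min in total RNA and no finite value in the cytosol. The quotient of Nodal over Tdgf1 fell at -1.53 ± 0.23 log2 per h in total RNA (SE, permutation adjusted p = 0.0002) and at -1.71 ± 0.25 in the membrane (permutation adjusted p = 0.0002). In the nucleus it fell at -1.35 ± 0.19 and in the cytosol at -1.09 ± 0.27 (permutation adjusted p = 0.0001 and 0.0033). With 0.1 added to each ratio the 4 slopes were -0.52, -0.43, -0.54 and -0.58 for total RNA, nucleus, cytosol and membrane, and all passed (permutation adjusted p of 0.0165 or smaller).

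The receptors came next. Acvr1b (chr15:101174067-101213684, plus strand), the type I receptor kinase also called ALK4, had ratios in total RNA of 0.774, 0.810 and 0.820 at 30 min and 0.159, 0.198 and 0.170 at 240 min. It fell at -0.63 ± 0.05 log2 per h (SE, limma adjusted p = 3.72e-07), with a half-life of 78.6 ± 3.23 min. In the nucleus it stood at 0.0895, 0.0879 and 0.0890 at 240 min, and in the cytosol at 0.352, 0.410 and 0.282, all 3 above the nuclear libraries. The medians over all genes had the same order at 240 min, at 0.313 to 0.356 in the nuclear and 0.476 to 0.491 in the cytosolic libraries. The share of all genes with this order was not counted. In the membrane the values of Acvr1b were 1.17, 1.05 and 1.14 at 30 min, all above 1, and 0.264, 0.293 and 0.247 at 240 min.

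Over the 4 times Acvr1b fell more slowly in the cytosol than in the nucleus or membrane. Its slope there was -0.37 ± 0.05 log2 per h, against -0.70 ± 0.07 in the nucleus and -0.60 ± 0.03 in the membrane (SE). Nucleus minus cytosol was -0.33 ± 0.08 (limma adjusted p = 0.00704) and membrane minus cytosol -0.22 ± 0.06 (limma adjusted p = 0.0197). The nuclear difference lost its call without replicate 2 (-0.25) or 3 (-0.35), and the membrane difference whichever replicate was left out (-0.20, -0.22 and -0.26). Scaled on mitochondrially encoded mRNAs, nucleus minus cytosol was -0.31 (limma adjusted p = 0.541) and membrane minus cytosol -0.51 (limma adjusted p = 0.0131). On that scale 0.107% and 20.5% of all genes were lower in these comparisons. Over 30 to 120 min the differences were -0.05 and -0.09 (limma adjusted p = 0.898 and 0.613), and with 0.1 added to each ratio nucleus minus cytosol was -0.15 (limma adjusted p = 0.133).

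Acvr2b (chr9:119402118-119434995, plus strand), a type II receptor kinase, fell at -0.41 ± 0.05 log2 per h in total RNA (SE, limma adjusted p = 1.93e-05), with a half-life of 133 ± 9.44 min. Its 4 slopes lay between -0.41 and -0.48, and no difference between nucleus, cytosol and membrane passed the threshold. In the membrane it stood above 1 at first, at 1.41, 1.11 and 1.35 at 30 min and 1.25, 1.10 and 1.12 at 60 min, and at 0.477, 0.500 and 0.346 at 240 min. The quotient of Acvr1b over Acvr2b fell in total RNA (-0.21 ± 0.06 log2 per h, SE, permutation adjusted p = 0.0114), nucleus (-0.27 ± 0.07, permutation adjusted p = 0.00462) and membrane (-0.15 ± 0.04, permutation adjusted p = 0.00546). In the cytosol its slope was 0.10 ± 0.05 (permutation adjusted p = 0.0926). Each of the first 3 calls was lost without replicate 1 (-0.15, -0.17 and -0.13), in total RNA also without replicate 3 (-0.22) and in the membrane also without replicate 2 (-0.13).

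Smad2 and Smad3 transmit the signal into the nucleus. Smad2 (on chromosome 18) stayed near or above a ratio of 1 in the nucleus, at 0.982, 1.60 and 1.02 at 30 min, 1.23, 1.16 and 1.304 at 60 min and 1.25, 0.783 and 0.954 at 120 min, and then stood at 0.349, 0.521 and 0.382 at 240 min. In the cytosol it was at 1.24, 1.01 and 0.979 at 30 min, 0.888, 0.691 and 0.685 at 60 min, 0.400, 0.328 and 0.405 at 120 min and 0.0544, 0.124 and 0.133 at 240 min. From 60 min on all 3 nuclear libraries were above all 3 cytosolic ones. The share of all genes with this order was not counted. The slopes were -0.46 ± 0.07 log2 per h in the nucleus and -0.99 ± 0.07 in the cytosol (SE), and the nuclear one was higher by 0.53 ± 0.10 (limma adjusted p = 0.000987). That call held without each replicate in turn, and without the nuclear 30 min library of replicate 1, which had the lowest median ratio of the 3 nuclear libraries at that time (0.555, against 0.805 and 0.934), the difference was 0.50. Scaled on mitochondrially encoded mRNAs it was 0.54 (limma adjusted p = 0.0948), on a scale where 0.0267% of all genes were higher. In the membrane the slope was higher than in the cytosol by 0.32 ± 0.10 (limma adjusted p = 0.0570), just outside the threshold. The half-life of Smad2 was 60.1 ± 8.07 min in the cytosol, 159 ± 47.8 min in the nucleus and 98.5 ± 15.6 min in total RNA.

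Smad3 (chr9:63646767-63757994, minus strand) had slopes from -0.76 log2 per h in the nucleus to -0.84 in the cytosol, and no difference between fractions passed. In total RNA it was at 0.757, 0.758 and 0.814 at 30 min and 0.125, 0.124 and 0.104 at 240 min, with a slope of -0.77 ± 0.04 (SE, limma adjusted p = 2.90e-08) and a half-life of 83.8 ± 6.05 min. In the nucleus most of its decline after 30 min came late, from 0.564, 0.671 and 0.531 at 120 min to 0.128, 0.121 and 0.0872 at 240 min. Over 30 to 120 min alone the nuclear slopes of Smad2 and Smad3 were -0.20 and -0.11 log2 per h (limma adjusted p = 0.341 and 0.490). The quotient of Smad2 over Smad3 rose in the nucleus, at 0.30 ± 0.09 log2 per h (SE, permutation adjusted p = 0.00964). That call was lost without replicate 1 (0.37) or 3 (0.23), and over 30 to 120 min the slope was -0.08. The quotient did not pass in total RNA (0.09 ± 0.05, permutation adjusted p = 0.0970), cytosol (-0.15 ± 0.09, p = 0.129) or membrane (0.11 ± 0.07, p = 0.159).

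Foxh1 (chr15:76668225-76669948, minus strand), the forkhead factor through which Smad2 and Smad3 bind many targets, had slopes over all 4 times near the median gene's. In total RNA it was at 0.968, 0.810 and 0.936 at 30 min, 0.436, 0.392 and 0.437 at 120 min and 0.510, 0.562 and 0.547 at 240 min, so that all 3 libraries at 240 min were above those at 120 min. The same order was seen in the cytosol, with 0.531, 0.533 and 0.477 at 120 min and 0.597, 0.552 and 0.547 at 240 min. In the nucleus it was lower, at 0.284, 0.257 and 0.208 at 240 min. At 120 min the means of Foxh1 were 0.422, 0.345, 0.514 and 0.628 in total RNA, nucleus, cytosol and membrane. The library medians over all genes were then 0.484 to 0.589, 0.435 to 0.487, 0.645 to 0.686 and 0.555 to 0.623. Its half-life was 217 ± 64.5 min in total RNA and 214 ± 81.0 min in the cytosol, but 83.4 and 86.4 min over 30 to 120 min alone. Foxh1 passed in all 4 fractions, with slopes of -0.20 ± 0.07 log2 per h in total RNA and -0.32 ± 0.06, -0.20 ± 0.06 and -0.27 ± 0.05 in nucleus, cytosol and membrane (SE, limma adjusted p = 0.0305, 0.000351, 0.0137 and 0.000180). The total RNA call was lost whichever replicate was left out (-0.18 to -0.23), the cytosol call without replicate 1 (-0.21) or 3 (-0.17), and with libraries centred on the median gene the slope was positive in total RNA and cytosol (0.03 and 0.08).

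**Figure D3:**
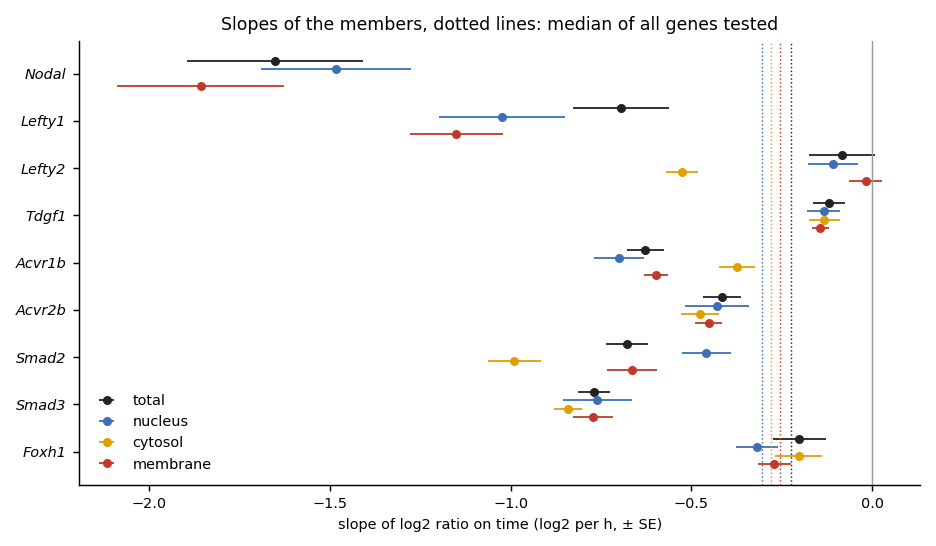
Slope of log2 ratio on time (log2 per h, ± SE) for each member in each fraction, with dotted lines at the median slope of all genes tested in that fraction, which lie between -0.22 and -0.30. Nodal lies farthest to the left, with slopes of -1.48 to -1.86, Tdgf1 and, outside the cytosol, Lefty2 lie to the right of the medians, and the cytosol parts from nucleus and membrane for Lefty2 and Acvr1b and from the nucleus for Smad2.

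Over the 3 comparisons of compartments, 1 member had a lower slope in the nucleus than in the cytosol (8.3% of 11232 genes) and 2 a higher one (12.3%). For membrane against cytosol 1 was lower (1.76% of 11086 genes) and 1 higher (4.94%), of 7 members tested. For nucleus against membrane 0 of 9 passed limma's threshold, where 6.16% of genes were lower and 2.19% higher, and Smad2 alone had an unadjusted p under 0.05, with a difference of 0.21 ± 0.10 log2 per h (SE, limma adjusted p = 0.200). The 3 comparisons share libraries and are not independent of each other.

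The order of the ratios at 240 min in total RNA ran from Lefty2 (0.608 ± 0.124, SD, n = 3) through Tdgf1 (0.590 ± 0.0197), Foxh1 (0.540 ± 0.0269), Acvr2b (0.298 ± 0.0402), Acvr1b (0.176 ± 0.0199), Smad2 (0.172 ± 0.0469), Smad3 (0.117 ± 0.0119) and Lefty1 (0.111 ± 0.0196) to Nodal (0.00855 ± 0.00320). The libraries of Lefty2 overlapped those of Tdgf1 and Foxh1, and those of Acvr1b and Smad2, and of Smad3 and Lefty1 overlapped as well. In the membrane the order was the same, and there Lefty2 (0.928 ± 0.204) and Tdgf1 (0.769 ± 0.0283), Foxh1 and Acvr2b, and Smad3 and Lefty1 overlapped. In the cytosol Lefty2 (0.276 ± 0.0484) moved to the fifth place, below Acvr1b (0.348 ± 0.0643) and Acvr2b (0.308 ± 0.0322), though its libraries overlapped those of both.

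The genes whose profile was nearest to a member over the 16 combinations of fraction and time, among 8602 genes, were found by the root-mean-square difference of mean log2 ratios. For Nodal they were Fgf4, a growth factor of the epiblast, at 0.53, then Zfp105 at 0.83 and Fzd10, a Wnt receptor, at 0.83. For Lefty1 they were Dhrs13os (0.43), Nhlrc3 (0.43) and Mllt11 (0.50), and for Lefty2 Hectd4 (0.19), Fndc5 (0.28) and Tmem64 (0.29). For Tdgf1 they were Lman1, a cargo receptor of the secretory pathway, Tmem123 and the junction protein Jam2, all at 0.14. Among the genes searched Nodal thus had no neighbour as near as those of Tdgf1. Only genes listed in all 48 libraries were searched, a filter that Nodal and Lefty1, listed in 47 each, would not pass. Genes missing from any library were thus not compared. The low ratios of Nodal were also scattered, at 0.115, 0.0120 and 0.0194 in the nucleus at 120 min. What the filter or such scatter adds to the distance was not tested.

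The other genes of the pathway were counted from a list of 53, of which 44 were listed in at least 1 library and 29 could be tested in total RNA. Of these 29, 19 fell and 0 rose by limma (0 upward at an unadjusted p under 0.05 as well), where 56.9% of all genes fell. In the nucleus 22 of 33 fell (61.9% of all genes), in the cytosol 21 of 29 fell (67.1%) and 1 rose (2.95%), and in the membrane 25 of 32 fell (62.2%). By role, the falls in total RNA were 2 of 4 ligands, 3 of 3 receptors and co-receptors, 1 of 4 extracellular and membrane antagonists, 1 of 2 Smads and anchors, 4 of 5 nuclear partners and co-repressors, 4 of 6 ubiquitin ligases and phosphatases and 4 of 5 feedback targets, groups too small to read against the share of all genes. The list's median slope was -0.38 log2 per h in total RNA, between that of the members and that of all genes. Among the ligands Inhbb, an activin subunit, fell at -1.21 ± 0.10 log2 per h (SE, limma adjusted p = 3.85e-07), with a ratio of 0.0266 ± 0.0033 (SD, n = 3) at 240 min. The feedback targets that fell were Dact2 (-1.16 ± 0.15 log2 per h), an antagonist that promotes receptor degradation, Pmepa1 (-1.003 ± 0.09), which sequesters Smads, Spsb1 (-0.89 ± 0.09) and Eid2 (-0.83 ± 0.06), and the limma adjusted p of each was 1.59e-05 or smaller.

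The nuclear partners and co-repressors that fell were Eomes (-1.05 ± 0.07 log2 per h), a T-box factor of the streak, Foxo3 (-0.73 ± 0.05), the acetyltransferase Ep300 (-0.56 ± 0.05) and Trim33 (-0.55 ± 0.07), with a limma adjusted p of 1.61e-05 or smaller. Fst, which encodes the activin-binding follistatin, fell at -0.75 ± 0.18 (SE, limma adjusted p = 0.00322). Smurf2, a ubiquitin ligase for receptors and Smads, fell at -0.62 ± 0.06, and the Smad phosphatase Ppm1a at -0.54 ± 0.05 (limma adjusted p = 1.09e-06 and 7.72e-07).

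Nomo1, a membrane protein that antagonises Nodal signalling, was the 1 gene of the list past the threshold upward in any fraction. It passed in the cytosol, where 2.95% of all genes rose, so 1 such gene did not set the list apart. In the cytosol its ratio went from 1.03 ± 0.103 (SD, n = 3) at 30 min to 1.86 ± 0.150 at 240 min, with a slope of 0.24 ± 0.04 log2 per h (SE, limma adjusted p = 7.70e-05). In the nucleus its slope was -0.26 ± 0.06 (limma adjusted p = 0.00176), and nucleus minus cytosol was -0.49 ± 0.07 (limma adjusted p = 4.98e-05).

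**Figure D4:**
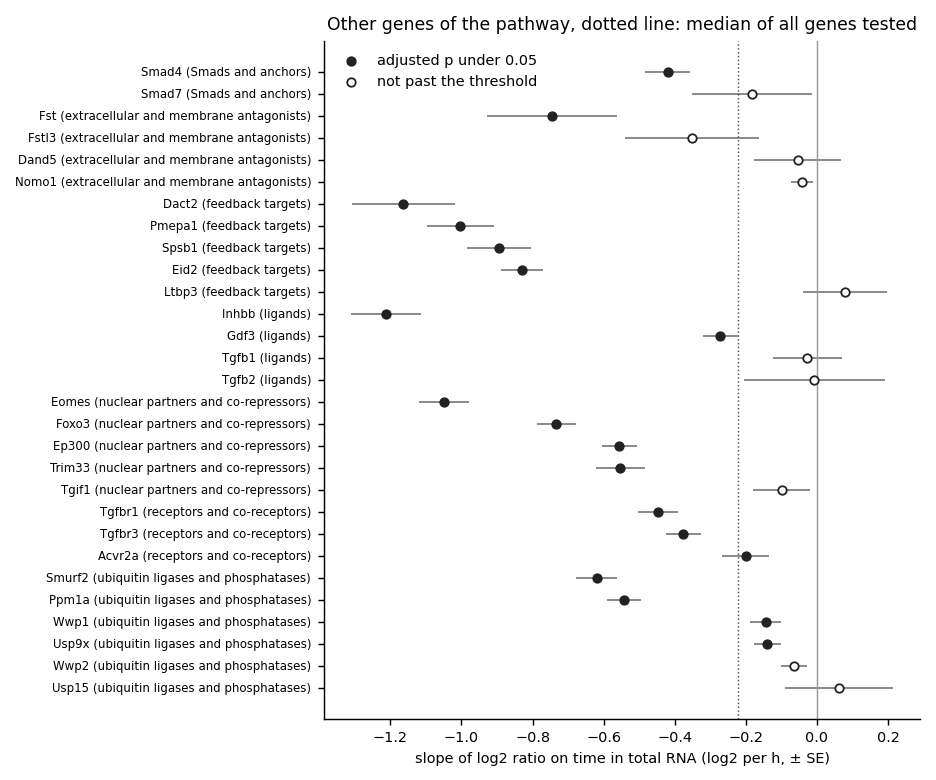
Slope of log2 ratio on time in total RNA (log2 per h, ± SE) for the 29 tested genes of the wider pathway list, ordered by role, with filled points for adjusted p under 0.05 and a dotted line at the median of all genes (-0.22). Inhbb, Dact2, Eomes and Pmepa1 have the steepest slopes, from -1.21 to -1.003, and no gene passed the threshold upward.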

How the data were processed

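The values are ratios that the authors deposited, 1 table per library: reads were aligned to mm10 with STAR 2.7.6 and quantified with RSEM 1.3.3 per the labels, libraries were scaled on long-lived transcripts, and each value was divided by that of 0 min in the same fraction. A gene without a value is not listed, counts were not used here, nor were the 0 min libraries. No column belonged to no sample (0). The protocol text gives 180 min as the last time where titles and methods give 240 min, which was used.

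Slopes of log2 ratio (no pseudocount) on time in h were estimated by limma 3.58.1 run in R 4.3.3 (moderated test with trend, two-sided, Benjamini-Hochberg over all genes) on the 12 libraries of a fraction, for genes listed in all 12, and differences between fractions as interactions over 24 libraries. An exponential with free starting level, fitted by least squares, gave half-lives, with the SD over fits to the 3 replicate series. Each series joined the libraries of 1 replicate number over the 4 times. Quotients of 2 members were tested by permutation (100000 resamples, scipy 1.17.1). These steps were tested on simulated data. 3′ UTRs came from GENCODE M21 (GRCm38), with like length meaning 0.8 to 1.25 times that of the member, and motifs were searched on the transcript strand.

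The members, the wider list, the pairs and the motifs were chosen with earlier results of these data known. Named genes were all members, up to 12 genes of the wider list with the largest absolute slope past the threshold in total RNA plus any past it upward, and the 3 nearest profiles of Nodal, Lefty1, Lefty2 and Tdgf1, predicted genes skipped. Alternatives were 2 pseudocounts, 2 filters, 3 scalings, a replicate block, a fit without trend, shorter or shifted times, and libraries or replicates left out.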

Additional observations from a re-analysis of the deposited data

Results flagged for a closer look

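The slopes of 3 members differed between fractions by limma's interaction test of the difference itself. For Lefty2, which fell in the cytosol, membrane minus cytosol was 0.51 log2 per h and nucleus minus cytosol 0.42. For Acvr1b the same differences were -0.22 and -0.33, the opposite sign to Lefty2. For Smad2 nucleus minus cytosol was 0.53. The 3 nucleus minus cytosol calls were lost on the scale of the mitochondrially encoded mRNAs (limma adjusted p = 0.240, 0.541 and 0.0948 for Lefty2, Acvr1b and Smad2), as was that of Lefty2 for membrane minus cytosol (0.22, limma adjusted p = 0.117). The 3 nuclear differences were 0.43, -0.31 and 0.54 on that scale. There 0.107% of all genes were lower and 0.0267% higher for nucleus minus cytosol, against 8.3% and 12.3% without it. For membrane minus cytosol 0.0631% of all genes were higher, against 4.94%. Over 30 to 120 min the differences of Acvr1b were -0.09 and -0.05 and neither passed, nor did nucleus minus cytosol of Lefty2 (0.44). For Acvr1b the membrane difference did not pass whichever replicate was left out, nor the nuclear one without replicate 2 or 3, and that of Lefty2 in the nucleus did not pass without replicate 1 (0.25). No group had the 4 or more samples that a search for single outlying samples needs, so none was made.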

How the results depend on the processing

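Of the values that answer a comparison, 421 of 497, and 782 of 946 for single genes, were kept under the alternatives. Slopes were kept if direction and side of the threshold held, and counts if they stayed within a set factor of the main count. Half-lives were kept if they moved by less than the SD over the replicate series. Those of Lefty2 in nucleus and membrane had no such SD and always passed as kept. Alternatives with no finite half-life were left out, so these shares lean high. What caused the changes in the rest was not tested. Depth is unknown, so the low ratios of Nodal and Lefty1 carry no counting error. Fits gave no finite half-life under some alternatives for Foxh1 (2), Lefty2 (6) and Tdgf1 (6). Values for several fractions follow the order total RNA, nucleus, cytosol, membrane. The median slope of all genes, -0.22, -0.30, -0.28 and -0.26 log2 per h, became 0.0052, 0.012, 0.0019 and 0.0047 with centred libraries and -0.33, -0.11, -0.12 and -0.40 on the mitochondrial scale.

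Centred on the median gene, 4 members fell in nucleus and cytosol alike (29.2% and 32.4% of all genes). Over the 4 fractions 1, 2, 1 and 2 members rose, and 4, 3, 4 and 5 of the wider list. Of all genes 28.8%, 29.6%, 29.4% and 28.3% rose. Slopes turned for Lefty2 (0.14, 0.21 and, in the membrane, 0.24), Tdgf1 (0.11, 0.18, 0.15, 0.12) and Foxh1 (total RNA 0.027, cytosol 0.078), and the members' median half-life was 165, 531, 278 and 203 min. Scaled on mitochondrially encoded mRNAs, 4 members fell in nucleus and cytosol alike (21.9% and 29.5% of all genes). In the nucleus 12 of the wider list fell and 1 rose, where 4.68% of all genes rose. Tdgf1 (nucleus 0.060, cytosol 0.027) and Lefty2 (nucleus 0.086) turned. For membrane minus cytosol 2 members were lower and 0 higher (20.5% and 0.0631% of all genes), and for nucleus minus cytosol 0 lower and 0 higher (0.107% and 0.0267%). For nucleus minus membrane 3 were higher (33.1% of all genes), and Acvr1b (0.21) and Lefty2 (0.23) turned. The members' median half-life was 152 min (cytosol) and 78.8 min (membrane). Scaled on ribosomal protein genes, Lefty2 in the membrane had 0.012 and the membrane median was 126 min.

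Over 30 to 120 min 3 members fell in the nucleus (39.6% of all genes), and 0 were lower for nucleus minus cytosol (4.45%). For membrane minus cytosol 0 were lower (3.74%) and 3 higher (1.89%). Of the wider list 1, 1, 3 and 1 rose, where 0.798%, 1.54%, 1.12% and 2.05% of all genes did. Acvr1b nucleus minus membrane turned to 0.037. Quotient slopes were -0.0089 (cytosol) and -0.29 (nucleus) for Acvr1b over Acvr2b, and -0.084 (nucleus) and -0.36 (cytosol) for Smad2 over Smad3. With 180 min as the last time, medians were 83.0 (total RNA), 90.6 (cytosol) and 97.7 min (membrane). Of the wider list 1 gene rose in the membrane then (3.95% of all genes), and Nodal over Lefty1 in the nucleus had -0.68. A starting level of 1 gave medians of 66.9, 142 and 166 min outside total RNA, and a straight line 100.4 min in the membrane. With 0.1 added, 0 members were lower for nucleus minus cytosol (4.49% of all genes), and Acvr1b nucleus minus membrane turned to 0.035. Quotient slopes were then 0.013 (membrane) and 0.0030 (nucleus) for Nodal over Lefty1, -0.14 for Lefty1 over Lefty2 (cytosol) and 0.15 for Smad2 over Smad3 (nucleus).

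With 1 replicate left out, 0 members were lower for membrane minus cytosol (0.639% to 0.822% of all genes). For nucleus minus cytosol 0 to 1 were lower (1.66% to 5.9%) and 1 to 2 higher (2.73% to 5.79%). Medians were 103 to 138 min (cytosol) and 105 to 125 min (membrane). The slope of Lefty2 ranged from -0.088 to 0.041 in the membrane (positive without replicate 3) and from -0.23 to 0.0033 for nucleus minus membrane (positive without replicate 2). Quotient slopes ranged over -0.27 to -0.15, -0.37 to -0.17 and -0.18 to -0.13 (total RNA, nucleus, membrane) for Acvr1b over Acvr2b, -1.16 to -0.74 and -0.48 to -0.37 (nucleus, cytosol) for Lefty1 over Lefty2, -0.82 to -0.50 (membrane) for Nodal over Lefty1, and 0.011 to 0.17, 0.23 to 0.37 and -0.25 to 0.023 (total RNA, nucleus, cytosol) for Smad2 over Smad3.

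Replicate numbers were not taken to pair libraries in the tests, since deviations from group means correlated over 0.1 in 6 of 72 same-numbered pairs within a fraction and 5 of 72 within a time. The replicate series behind the half-life SDs join libraries by that number all the same. Their SD is thus a spread over such joins and need not be one between replicates. With the replicate block Lefty1 over Lefty2 in the cytosol had -0.43 (permutation adjusted p = 0.0730), and no other call on members changed.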
